A study of Mus musculus with 44 samples.

Results

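Whole blood of mice given bacterial endotoxin (lipopolysaccharide, LPS) was compared with whole blood of mice given saline, 6 h after the injection. The comparison was defined by its labels and not by any measured value, and it used 8 of the 44 samples of the series, 4 saline and 4 LPS libraries, with all 1201496 cytosines of the deposited table. Every group, the saline one included, came from adult male C57BL/6J mice of 8 to 12 weeks and about 30 g treated to model Gulf War Illness. They drank water with 200 mg/L of the stress hormone corticosterone (CORT) and 0.6% ethanol for 7 days. The nerve agent surrogate diisopropyl fluorophosphate (DFP), which blocks acetylcholinesterase, was injected at 4 mg/kg on day 8, and CORT weeks then alternated with weeks without it up to 5 weeks. The last injection was saline or 0.5 mg/kg LPS under the skin. No group was free of CORT and DFP, so the comparison shows LPS on top of that treatment and says nothing of either agent alone. Whether each replicate is an animal of its own is not stated in the labels, and the p-values below measure library-to-library spread, which may be technical. Reduced representation bisulfite sequencing (RRBS) reads methylation at cytosines of CpG-rich fragments, and the values are the percent of reads that were methylated at each cytosine. Read counts do not accompany them, and the depth is unknown.

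In mammals methyl groups are placed mostly on cytosines that stand before a guanine (CpG). CpG-rich promoters are unmethylated in nearly all cells, whereas many CpG-poor promoters and enhancers are methylated except in the cell types that use them. White blood cells therefore carry a pattern of unmethylated sites at their own genes, and whole blood DNA, which comes from nucleated white cells because mouse red cells and platelets have no nucleus, averages the patterns of neutrophils, lymphocytes and monocytes. In bulk DNA, a change in the share of a cell type and a change of methylation within cells cannot be told apart.

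The 4 libraries labelled saline go against the label of blood at several genes that define it. At the 3 tiles (windows of 1000 bp) of Spi1, the gene of the blood transcription factor PU.1, their means were 66.6 to 72.7%, next to 74.4 to 85.8% in saline cortex, whereas the LPS libraries were at 6.88 to 26.7%. The highest falling tile of Vav1, a signalling gene of blood cells, was at 61.8% in saline blood, 66.9% in cortex and 3.17% in LPS blood, and Pf4, a platelet gene, at 61.2, 56.3 and 6.06%. The other falling tile of Vav1, at the gene start, was at 17.0, 58.7 and 1.59%, so saline blood was nearer to LPS blood there. Itgal (50.9, 80.4 and 7.03%), Csf3r (36.0, 68.3 and 3.39%) and Cd79b (24.7, 74.1 and 3.17%) lay between cortex and LPS blood, and Ptprc, at 21.9%, was above both cortex (7.24%) and LPS blood (1.69%). Here and below, levels in brain and in LPS blood at 12 h and 24 h can rest on other cytosines of the same window. They are therefore not compared at identical cytosines. LPS blood taken at 12 h and 24 h was at 0 to 22.3% at every tile of these genes that fell at 6 h and was measured there. Blood had no other saline libraries, so an effect of LPS and a difference in what the saline libraries hold cannot be told apart in any result that follows. Here rose, fell, higher and lower mean the libraries labelled LPS against those labelled saline.

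The LPS libraries were the more methylated ones on average, and they differed more among themselves. The mean over all cytosines was 33.49, 33.74, 33.73 and 33.39% in the saline libraries and 36.07, 34.59, 36.32 and 35.05% in the LPS libraries, with no overlap. The difference was 1.92 points (two-sided exact permutation test, p = 0.0286, the smallest that 4 against 4 libraries allow). The median over cytosines was higher by 0.331 points (exact permutation p = 0.114). LPS replicate 2 stood nearest to the saline libraries. It was the LPS library closest to the saline mean at 793 of 1352 changed promoters (58.7%), and without it 1015 promoters rose and 361 fell, against 982 and 370 with it.

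Methylation changed in both directions over a large part of the measured genome, and more often upwards. Fixed windows of 1000 bp (tiles) with at least 3 cytosines and a mean level of 5 to 95% were compared with limma, and a tile was called when its Benjamini-Hochberg adjusted p was below 0.05 and the groups were 5 or more percentage points apart. Of 74684 tiles, 22137 rose (29.6%) and 8827 fell (11.8%). With each library centred on its own mean, 18932 rose and 13956 fell, so the excess of rises depends in part on the difference in library means. On the logit scale 21579 rose and 8495 fell. At the tiles that rose, the library medians were 60.5 to 61.0% in saline and 87.4, 80.5, 87.1 and 85.4% in LPS. At those that fell they were 73.1 to 73.5% in saline and 48.5, 53.1, 52.7 and 47.5% in LPS. Of 497292 single cytosines, 102368 rose (20.6%) and 37959 fell (7.63%) by 10 points or more. Of 12667 whole genes (span and 1000 bp either side, no minimum difference), 5377 rose (42.4%) and 1241 fell (9.8%), and with centring 3238 rose and 4742 fell. Centring takes the difference in library means off every gene. With no minimum difference, genes that hardly moved can then count as falls.

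Genes that mark white blood cells were less methylated after LPS in at least 1 measured tile each. The general leukocyte phosphatase Ptprc (CD45) held 1 measured tile, at 17.7, 32.3, 19.3 and 18.3% in saline and 0, 5.59, 0.848 and 0.305% in LPS (limma adjusted p = 3.51e-05). The 3 tiles of Spi1, the gene of the myeloid and B cell transcription factor PU.1, all fell: from 67.6% ± 7.96 (SD, n = 4) to 12.9% ± 8.32, from 72.7% ± 6.88 to 6.88% ± 4.82 and from 66.6% ± 5.13 to 26.7% ± 6.81. At these 4 tiles each LPS library was below each saline library. Cd79b, a chain of the B cell receptor, fell from 24.7% ± 2.08 to 3.17% ± 3.13 and Cd3d, a chain of the T cell receptor complex, from 48.1% ± 17.1 to 4.14% ± 2.64. The tile at the start of the integrin gene Itgal fell from 50.9% ± 2.64 to 7.03% ± 6.92, while a tile farther inside rose from 73.7% ± 5.73 to 94.2% ± 0.694. Slc4a1, which encodes the anion exchanger of red cells and is not a white cell gene, had 5 tiles, of which 1 rose from 46.8% ± 5.61 to 56.0% ± 2.12 (adjusted p = 0.0412, a call that ended with centring and with a replicate block) and 4 did not pass. Of the 9 defining genes, 8 (all but Slc4a1) had at least 1 tile that fell, as had 3480 of 12499 genes with a tested tile (27.8%).

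Promoters were taken as the cytosines within 500 bp of a RefSeq transcript start, at least 3 of them. Of 14868 measured starts, 843 rose (5.67%) and 326 fell (2.19%) when all were tested, since most CpG-rich starts were near 0 in every library. Among the 2557 starts with a mean level of 5 to 95%, 982 rose (38.4%) and 370 fell (14.5%). With the libraries centred, 844 of all starts rose (5.68%) and 523 fell (3.52%). The plot of saline against LPS means shows the called starts on both sides of the line of equality.

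**Figure D1:**
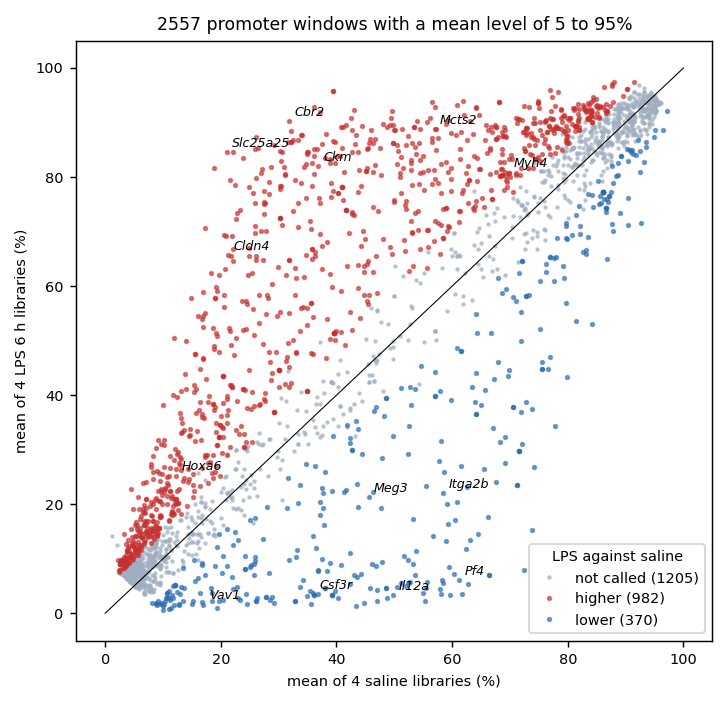
Mean methylation (%) within 500 bp of the transcript start in the 4 saline libraries (horizontal axis) and the 4 LPS libraries (vertical axis) for 2557 starts with a mean of 5 to 95%. Each point is a start, the line marks equal levels, and 982 points are higher and 370 lower after LPS.

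The lists of white cell and platelet genes had falling promoters and no rising one. In 11 lists with 261 genes, 89 starts of 76 genes were measured, 68 of them under 5% in both groups, and 15 fell and 0 rose by limma. With centring 16 fell and 0 rose, on the logit scale 14 fell and 0 rose, and at an unadjusted p under 0.05 with no minimum difference 23 fell and 7 rose. Over all starts 2.19% fell and 5.67% rose. These lists were drawn up with earlier results of these data known, so their direction is not independent evidence. By list, 3 of 34 starts of haematopoietic transcription factors fell, 4 of 6 of platelet and megakaryocyte genes, 2 of 4 of T cell markers, 2 of 20 of leukocyte signalling genes, 1 of 9 of integrin and adhesion genes, 1 of 3 of monocyte and macrophage markers, 1 of 1 of natural killer (NK) cell markers and 1 of 1 of neutrophil genes. The 8 starts of phagocyte oxidase and lysosome genes were all under 5% in both groups. They could not reach the 5-point minimum, so 0 passed by limma (1 higher and 1 lower at an unadjusted p under 0.05). No start of the B cell list was measured.

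**Figure D2:**
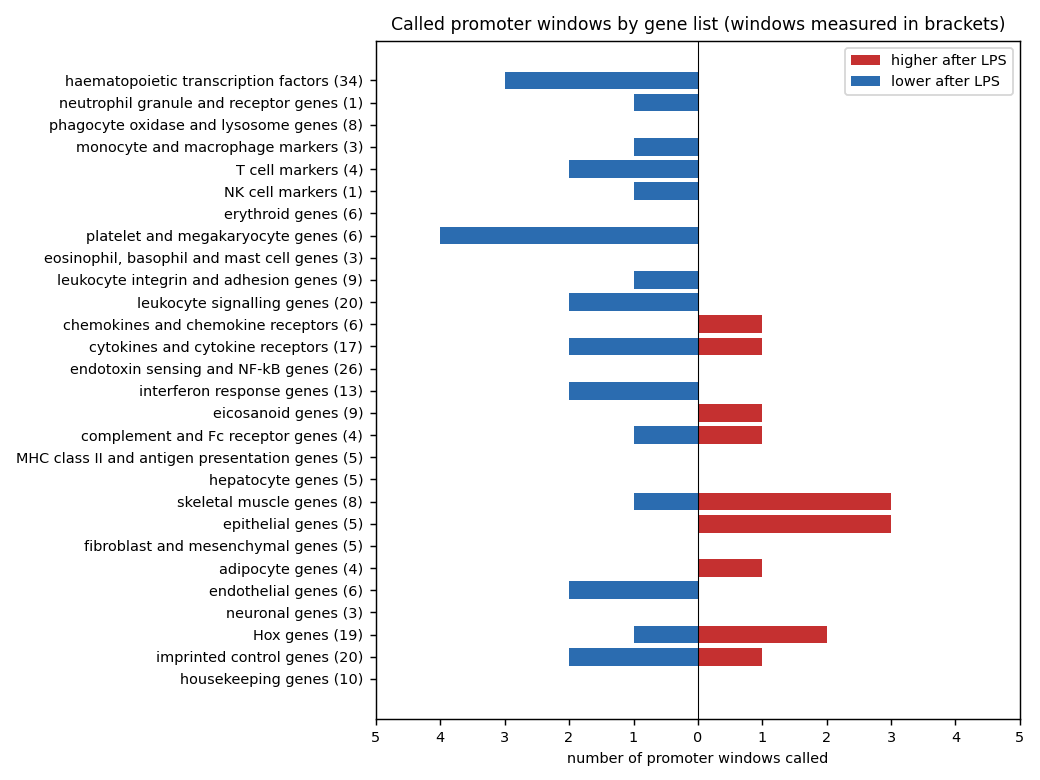
Number of promoter windows that rose (right, red) or fell (left, blue) after LPS in each gene list, with the number of windows measured in brackets. White cell and platelet lists show falls and no rises, and muscle, epithelial, adipocyte and Hox lists show mostly rises.

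The receptor of granulocyte colony-stimulating factor, Csf3r, drives the making of neutrophils. Its start (5 cytosines) was at 36.7, 35.3, 36.9 and 35.1% in saline and at 2.58, 5.15, 5.01 and 0.833% in LPS. It fell by 32.6 points (SE 1.53, limma adjusted p = 2.87e-07), with every LPS library far below every saline one. Cbfa2t3 encodes a co-repressor of blood stem and progenitor cells. Its 18 cytosines were at 39.0, 43.5, 45.0 and 44.5% in saline and 3.82, 12.1, 4.57 and 7.34% in LPS (adjusted p = 1.01e-06). Batf, an AP-1 factor of lymphocytes, was at 53.4, 55.9, 50.5 and 49.5% in saline and 6.61, 14.4, 9.52 and 8.24% in LPS over 10 cytosines (adjusted p = 5.55e-07). In Cbfa2t3 and Batf, LPS replicate 2 was the highest of its group. Lyl1, a transcription factor of blood stem cells, fell from 24.6% ± 5.15 (n = 4) to 1.70% ± 2.17 (n = 4).

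The 250 bases before these 3 starts are shown because each measured CpG in them moved the same way. They are from RefSeq (GRCm38.p6), read 5′ to 3′ towards the start, with the measured CpGs in capitals. Csf3r lies at chr4:126024409-126024658, plus strand, Cbfa2t3 at chr8:122699110-122699359, minus strand, and Batf at chr12:85686470-85686719, plus strand.
Csf3r: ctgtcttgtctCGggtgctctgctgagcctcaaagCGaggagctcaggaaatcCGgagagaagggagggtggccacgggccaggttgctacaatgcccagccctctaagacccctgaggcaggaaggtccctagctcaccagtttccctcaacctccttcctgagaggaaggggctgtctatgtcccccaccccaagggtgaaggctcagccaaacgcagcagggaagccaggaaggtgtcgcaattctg
Cbfa2t3: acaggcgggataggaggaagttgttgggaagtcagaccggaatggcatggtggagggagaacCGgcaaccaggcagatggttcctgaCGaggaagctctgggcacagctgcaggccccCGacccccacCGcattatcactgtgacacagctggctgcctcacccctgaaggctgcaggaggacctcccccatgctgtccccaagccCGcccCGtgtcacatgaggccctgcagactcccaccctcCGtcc
Batf: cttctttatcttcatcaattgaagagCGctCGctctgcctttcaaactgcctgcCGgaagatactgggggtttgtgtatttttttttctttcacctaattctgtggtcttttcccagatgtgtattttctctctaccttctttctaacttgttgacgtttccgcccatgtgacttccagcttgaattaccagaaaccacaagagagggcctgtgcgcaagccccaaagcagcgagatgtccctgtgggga
The 3 measured cytosines of Csf3r had group means of 21.7 to 39.0% in saline and 1.74 to 2.58% in LPS. The 7 of Cbfa2t3 had means of 25.2 to 61.6% and 2.27 to 22.0%, and the 5 of Batf (at 3 CpGs, since both strands were measured) means of 47.9 to 71.5% and 1.999 to 13.5%. The Cbfa2t3 stretch holds GAGGAAGT, the type of site PU.1 is known to bind, and the other 2 do not on either strand.

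Platelet genes, which are active in megakaryocytes of the marrow, fell as well. Pf4, a chemokine of platelet granules, was at 66.5, 54.4, 58.7 and 65.2% in saline and at 3.44, 6.09, 6.99 and 7.73% in LPS (10 cytosines, difference -55.1 points, SE 2.94, limma adjusted p = 4.59e-07). Itga2b, the platelet integrin chain CD41, fell from 58.4% ± 1.46 (n = 4) to 22.0% ± 1.86 (n = 4), and Gp1bb, a chain of the von Willebrand factor receptor, from 68.3% ± 7.05 to 31.4% ± 7.68. Neither gene's libraries overlapped between the groups. Treml1, a platelet granule receptor, was the only one of the 4 whose libraries overlapped, its change was the smallest, and its call was lost on the logit scale.

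Among T cell and NK genes, Lat, the scaffold of T cell receptor signalling, was at 63.2, 65.1, 56.5 and 48.0% in saline and 2.57, 8.23, 8.19 and 5.31% in LPS (adjusted p = 1.48e-06). Cd27, a co-stimulatory receptor, fell from 43.7% ± 4.25 to 19.5% ± 2.05 and the kinase Txk from 63.5% ± 4.18 to 41.6% ± 5.94. Both stopped well above the near-zero level of Lat and Csf3r. Dock2, which drives leukocyte migration through Rac, fell from 54.96% ± 7.13 to 3.73% ± 2.34, Vav1, another activator of Rac, from 17.0% ± 2.23 to 1.59% ± 1.88, and Cd48, an adhesion receptor, from 59.7% ± 3.12 to 3.44% ± 1.64. C1qb, a chain of complement C1q made by macrophages, fell from 67.3% ± 4.95 to 43.1% ± 5.95. The endothelial genes Eng and Tie1, which blood stem cells also express, fell from 44.7% ± 9.59 to 1.86% ± 0.944 and from 46.8% ± 5.66 to 8.72% ± 6.16. They were the 2 of 6 measured endothelial starts that passed (of all starts 5.67% rose and 2.19% fell).

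At genes of tissues other than blood, the starts that passed were mostly rises, but most starts did not pass. In 7 lists (hepatocyte, skeletal muscle, epithelial, fibroblast, adipocyte, neuronal and Hox genes) with 124 genes, 49 starts were measured, 22 of them under 5% in both groups, and 9 rose and 2 fell, against 5.67% and 2.19% of all starts. Of the 26 starts at 5 to 95% the 9 rises are near the 38.4% of all such starts. The 9 come from the fit over all starts and the 38.4% from the fit of that class alone, which calls more starts. With centring 8 rose and 4 fell, and at an unadjusted p under 0.05 with no minimum difference 18 were higher and 4 lower. The endothelial list, described above with 2 falls of 6 starts, is not among the 7. Taken as whole genes, these lists had 62 of 114 members higher and 8 lower as measured, against 34.4% and 8.05% of all genes. With centring 43 were higher and 28 lower, against 19.8% and 49.1% of all genes. Centring takes 1.92 points off each gene, while the median difference over all measured genes was 0.556 points. The setting itself thus makes many of these falls, and 49.1% is no general rate of falling genes. The white cell and platelet lists as whole genes had 50 of 195 higher and 63 lower. With centring they had 38 and 108, near the centred shares of all genes. Levels differed between lists: the mean over the 8 muscle starts was 45.9 to 47.1% in the saline libraries and 50.6 to 53.4% in the LPS libraries, and over the 5 epithelial starts 13.0 to 15.98% and 30.7 to 35.4%. The 3 neuronal starts averaged 1.17 to 2.02% and 2.57 to 3.45%, and the 5 fibroblast starts 3.86 to 4.83% and 3.01 to 4.46%.

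Ckm, the muscle creatine kinase, was at 40.1, 35.2, 38.2 and 33.9% in saline and 87.1, 68.9, 85.0 and 86.9% in LPS (8 cytosines, difference 45.2 points, SE 4.15, limma adjusted p = 7.87e-06). LPS replicate 2 was again the one nearest to saline. Acta1, skeletal actin, rose from 19.9% ± 1.91 (n = 4) to 34.6% ± 5.49 (n = 4) and Myh4, a fast muscle myosin, from 69.8% ± 3.29 to 80.8% ± 1.52. Myog, the muscle transcription factor myogenin, went the other way, from 77.6% ± 3.13 to 61.0% ± 4.46. Pygm, muscle glycogen phosphorylase, fell from 69.3% ± 2.001 to 59.4% ± 4.90 among the starts of 5 to 95% (adjusted p = 0.0129), and did not pass over all 14868 starts (0.0607).

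Cldn4, a tight junction protein of epithelia, was at 21.0, 24.4, 18.96 and 20.7% in saline and 66.2, 61.6, 68.0 and 66.7% in LPS (adjusted p = 5.55e-07). Krt5, the keratin of basal epithelial cells, rose from 36.2% ± 3.02 to 80.6% ± 6.54. Cldn7, another claudin, rose from 4.05% ± 1.34 to 10.2% ± 1.19, and with centring its difference of 4.22 points was under the minimum. Lep, the fat hormone leptin, was at 33.3, 36.3, 33.6 and 38.9% in saline and 66.5, 74.4, 69.5 and 71.1% in LPS. In all of these, the groups did not overlap.

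Hox genes specify position along the body axis. Of their 19 measured starts 2 rose and 1 fell, against 5.67% and 2.19% of all starts. At an unadjusted p under 0.05 with no minimum difference, 7 of the 19 were higher and 2 lower by limma. Hoxa5 rose the most of the list, from 22.6, 26.4, 22.6 and 16.2% to 73.3, 59.3, 74.8 and 69.7% over 36 cytosines (adjusted p = 3.38e-06). Hoxa6 rose from 12.2% ± 1.07 to 25.2% ± 1.76 within 500 bp of its start, but the narrower stretch from 250 bp before to 50 bp after it had a difference of -2.95 points (adjusted p = 0.085). Hoxb1 fell from 31.8% ± 3.86 to 9.71% ± 1.71. The other 16 measured Hox starts did not pass, 11 of the 19 being under 5% in both groups. As whole genes, 20 of 39 Hox genes rose and 4 fell (34.4% and 8.05% of all genes), and with centring 14 rose and 14 fell (19.8% and 49.1% of all genes).

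**Figure D3:**
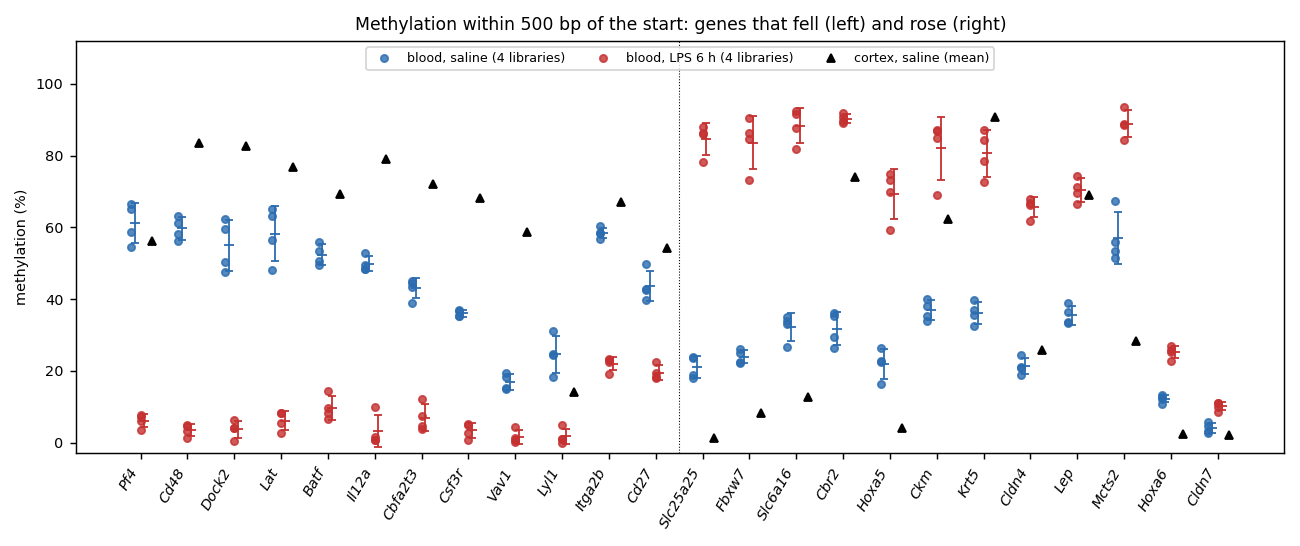
Methylation (%) within 500 bp of the start of 24 genes, 12 that fell and 12 that rose. Dots are single libraries (blue saline, red LPS), bars the mean ± SD of 4, and black triangles the mean of the saline cortex libraries where measured; saline and LPS dots do not overlap at any of these genes.

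The stretches before 4 starts that rose are shown for comparison with those that fell, in the same form. Ckm lies at chr7:19410844-19411093, plus strand, Cldn4 at chr5:134946935-134947184, minus strand, Hoxa5 at chr6:52204588-52204837, minus strand, and Lep at chr6:29059971-29060220, plus strand.
Ckm: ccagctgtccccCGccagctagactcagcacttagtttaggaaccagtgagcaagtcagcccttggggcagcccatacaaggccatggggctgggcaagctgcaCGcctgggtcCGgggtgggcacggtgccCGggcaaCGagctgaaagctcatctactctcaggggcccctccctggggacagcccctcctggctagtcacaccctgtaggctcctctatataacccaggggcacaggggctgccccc
Cldn4: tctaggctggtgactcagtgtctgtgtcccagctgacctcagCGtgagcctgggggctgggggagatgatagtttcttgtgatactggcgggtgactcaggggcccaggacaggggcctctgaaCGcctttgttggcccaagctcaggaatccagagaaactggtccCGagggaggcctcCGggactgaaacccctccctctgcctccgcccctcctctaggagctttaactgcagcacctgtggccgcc
Hoxa5: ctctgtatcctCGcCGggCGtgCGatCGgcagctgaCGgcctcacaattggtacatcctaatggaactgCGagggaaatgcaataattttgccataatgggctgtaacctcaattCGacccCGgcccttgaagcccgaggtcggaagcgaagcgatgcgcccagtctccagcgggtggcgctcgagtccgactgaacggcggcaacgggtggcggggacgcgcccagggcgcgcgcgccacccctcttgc
Lep: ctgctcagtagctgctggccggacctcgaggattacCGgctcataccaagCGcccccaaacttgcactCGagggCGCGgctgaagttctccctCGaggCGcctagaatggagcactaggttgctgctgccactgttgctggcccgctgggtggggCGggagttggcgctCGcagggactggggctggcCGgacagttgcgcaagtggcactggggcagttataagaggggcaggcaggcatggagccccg
The 5 measured cytosines of Ckm had group means of 21.9 to 39.95% in saline and 63.5 to 88.3% in LPS, and the 4 of Cldn4 means of 14.8 to 23.5% and 52.9 to 74.7%. The 12 of Hoxa5 had means of 14.3 to 36.5% and 55.2 to 83.9%, and the 10 of Lep means of 23.1 to 50.9% and 49.1 to 90.2%. The Hoxa5 stretch holds 28 CpGs, of which 9 were measured, and the Csf3r stretch 6, of which 3 were measured.

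Most starts of endotoxin sensing and NF-kB genes were too low in both groups to be called, and single cytokine and interferon genes passed. Of 26 starts of endotoxin sensing and NF-kB genes, 25 were under 5% in both groups. Such starts cannot reach the 5-point minimum as measured or on the logit scale, so their outcome was fixed in advance. By limma 0 of the 26 passed as measured, with centring or on the logit scale. At an unadjusted p under 0.05 with no minimum difference, 2 were higher and 0 lower. As whole genes, 12 of 37 rose and 2 fell, against 34.4% and 8.05% of all genes, and with centring 6 rose and 15 fell, against 19.8% and 49.1%. Of 17 starts of cytokines and their receptors, 1 rose and 2 fell (all starts: 5.67% and 2.19%), and 12 were under 5% in both groups. Il12a, the p35 subunit of interleukin 12, had the largest fall of that list: 49.4, 48.5, 52.9 and 48.5% in saline against 0.722, 9.89, 0.827 and 1.66% in LPS over 16 cytosines (difference -46.5 points, SE 2.45, adjusted p = 4.20e-07). The LPS libraries other than replicate 2 were all under 2%. Its 250 bases before the start, at chr3:68691174-68691423, plus strand, hold 9 measured CpGs, with group means of 43.2 to 62.8% in saline and 0.658 to 6.43% in LPS.
Il12a: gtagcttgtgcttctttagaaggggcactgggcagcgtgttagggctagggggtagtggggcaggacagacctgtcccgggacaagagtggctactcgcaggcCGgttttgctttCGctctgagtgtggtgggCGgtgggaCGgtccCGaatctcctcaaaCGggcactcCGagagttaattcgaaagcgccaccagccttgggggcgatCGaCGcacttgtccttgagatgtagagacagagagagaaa
Ltb, a lymphotoxin chain, fell from 36.5% ± 6.56 (n = 4) to 11.9% ± 8.07 (n = 4), a call that was lost on the logit scale over all starts. Il1r1, the receptor of interleukin 1, rose from 4.45% ± 0.971 to 15.5% ± 2.14. Csf2ra, a chain of the receptor for granulocyte-macrophage colony-stimulating factor, fell from 46.4% ± 2.22 to 37.1% ± 2.78 among the starts of 5 to 95% (adjusted p = 0.00783) but did not pass over all starts (0.0609).

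Of 13 starts of interferon response genes, 2 fell (2.19% of all starts). Irf9, which pairs with STAT factors in interferon signalling, was at 16.2, 15.2, 15.5 and 13.4% in saline and 3.08, 2.09, 1.62 and 1.85% in LPS (adjusted p = 2.30e-06). Trim25, a ubiquitin ligase of the RIG-I pathway, fell from 11.8% ± 1.75 to 2.85% ± 1.06. Of 9 starts of eicosanoid genes only Ptges, the inducible prostaglandin E synthase, passed, rising from 11.03% ± 1.58 to 25.2% ± 6.00, and in the narrower stretch around its start the difference was 0.595 points. The neutrophil chemokine Cxcl3 rose from 9.60% ± 1.48 to 22.7% ± 3.01, the only one of 6 chemokine and chemokine receptor starts that passed. Over all starts 5.67% rose, the share to set beside the eicosanoid and chemokine lists. C5ar2, a receptor of complement C5a, fell from 40.8% ± 5.13 to 8.94% ± 4.75, whereas Cd59a, an inhibitor of complement lysis, rose from 21.1% ± 5.03 to 39.3% ± 8.97.

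Imprinted genes, where one parental copy is methylated and levels near the middle of the scale are usual, had 20 measured starts, of which 1 rose, 2 fell and 17 did not pass. Over all starts 5.67% rose and 2.19% fell. Of the 20 starts 14 were at 5 to 95%, a class in which 38.4% of all starts rose and 14.5% fell. Those shares come from the fit of that class alone, which calls more than the fit over all starts used for the list. Mcts2 was at 53.3, 67.3, 51.3 and 56.0% in saline and 93.5, 84.3, 88.9 and 88.5% in LPS (29 cytosines, adjusted p = 3.13e-05), so that the LPS libraries stood far above the middle. Meg3 fell from 45.6% ± 7.64 to 21.3% ± 9.28 and 1 start of Gnas from 43.6% ± 4.51 to 23.7% ± 8.80. Igf2 rose from 46.4% ± 9.17 to 62.5% ± 3.86 among the starts of 5 to 95% (adjusted p = 0.00961) but not over all starts (0.0556), and its libraries overlapped. The 10 housekeeping starts were under 5% in both groups, too low to reach the 5-point minimum, so that 0 passed by limma was fixed in advance. At an unadjusted p under 0.05 with no minimum difference, 0 differed too.

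Over all genes, the largest promoter differences were above 50 points. The libraries of the groups did not overlap at 1040 of the 2557 starts with LPS above (40.7%) and at 373 with LPS below (14.6%). Among protein-coding genes with no overlap between the groups, the 10 largest falls were Psd4, Parvg, Cd48, Pf4, Unc119, Rhoh, Rps6ka1, Tnfsf14, Lat and Dock2. Psd4, an exchange factor of ARF6, went from 66.9, 77.3, 74.5 and 71.1% to 8.47, 8.97, 7.01 and 7.06% (adjusted p = 2.27e-07). Parvg, a parvin of blood cells, fell from 61.7% ± 4.52 to 3.47% ± 4.92, Rhoh, an atypical GTPase of lymphocytes and other blood cells, from 57.9% ± 9.10 to 4.41% ± 4.63, and Tnfsf14, the ligand LIGHT, from 55.2% ± 3.06 to 2.28% ± 1.60. Rps6ka1, a ribosomal S6 kinase, fell from 60.4% ± 3.72 to 7.22% ± 3.03. The 10 largest rises were Slc25a25, Fbxw7, Cbr2, Col18a1, Slc6a16, Iqschfp, Crocc, Anxa8, Gm38457 and Nfia. Slc25a25, a mitochondrial carrier of ATP and phosphate, went from 18.8, 17.99, 23.5 and 23.8% to 85.9, 78.2, 88.1 and 86.1% (adjusted p = 2.87e-07). Fbxw7, which selects proteins for ubiquitin ligation, rose from 23.9% ± 1.84 to 83.6% ± 7.42, Cbr2, a carbonyl reductase known from lung, from 31.8% ± 4.68 to 90.3% ± 1.26, and Col18a1, a basement membrane collagen, from 29.2% ± 2.76 to 85.9% ± 6.99. These lists were restricted to coding genes after the values were seen. With all gene types, the uncharacterised Gm32026, Gm42060 and Gm15708 were among the 10 largest falls and Gm38675, Gm19417, Gm15889, A030001D20Rik, 4930517G24Rik, Gm39090 and 2310015A16Rik among the 10 largest rises.

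MicroRNAs (miRNAs) are short RNAs that repress messenger RNAs matching their seed, bases 2 to 8. Of 282 hairpins with at least 3 cytosines within 1000 bp, 78 rose (27.7%) and 14 fell (4.96%). Mir142, a miRNA of blood cells, fell the most: 61.3, 64.1, 64.8 and 59.99% in saline and 2.44, 8.78, 3.87 and 2.46% in LPS over 10 cytosines (difference -58.2 points, SE 2.25, limma adjusted p = 1.73e-07). It was the only one of 7 listed blood cell miRNAs that was measured. Mir200c and Mir141, a pair of epithelial miRNAs on chromosome 6, rose from 42.1, 40.1, 46.4 and 39.1% to 87.1, 74.99, 87.6 and 82.8%, and from 32.5, 34.1, 36.2 and 33.8% to 72.0, 61.0, 71.7 and 68.4%. Their windows overlap, so they are not independent. No muscle miRNA of the list was measured.

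The mature strands of these 3 and of the Hox cluster miRNA Mir196a-1 are shown, from RefSeq (GRCm38.p6), with the seed in capitals, because blood, epithelial and Hox cluster miRNAs were listed groups with a changed hairpin.
miR-142a-5p: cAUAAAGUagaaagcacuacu
miR-142a-3p: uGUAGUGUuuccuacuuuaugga
miR-200c-3p: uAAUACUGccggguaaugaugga
miR-141-3p: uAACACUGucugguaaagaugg
miR-196a-5p: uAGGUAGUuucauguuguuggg
No 2 of these 5 strands have the same seed, so each is a seed group of its own.

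Of 4 measured Hox cluster miRNAs, Mir196a-1 rose from 11.4% ± 1.02 (n = 4) to 32.4% ± 3.85 (n = 4). Mir10b was at 8.26, 8.35, 8.84 and 12.1% in saline and 24.8, 7.33, 27.3 and 27.0% in LPS (adjusted p = 0.0357), so LPS replicate 2 lay below all saline libraries. Mir196a-2 and Mir196b were under 5% in both groups, so neither could reach the 5-point minimum. Their small changes went opposite ways, with no overlap between the groups. Mir196a-2 went from 2.22% ± 0.738 to 4.26% ± 1.03 (limma adjusted p = 0.0157) and Mir196b from 3.28% ± 0.658 to 1.45% ± 0.548 (limma adjusted p = 0.00443). Of 4 measured neuronal hairpins, Mir128-2 rose from 14.3% ± 2.39 to 27.0% ± 4.83 and Mir9-1, Mir9-2 and Mir9-3 were under 5%. The window that holds Mir25, Mir93 and Mir106b rose from 37.7% ± 2.77 to 78.0% ± 5.14, and that of Mir125a and Mirlet7e from 54.2% ± 1.70 to 86.9% ± 3.01. Mir671 fell from 43.1% ± 1.26 to 16.1% ± 2.60.

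**Figure D4:**
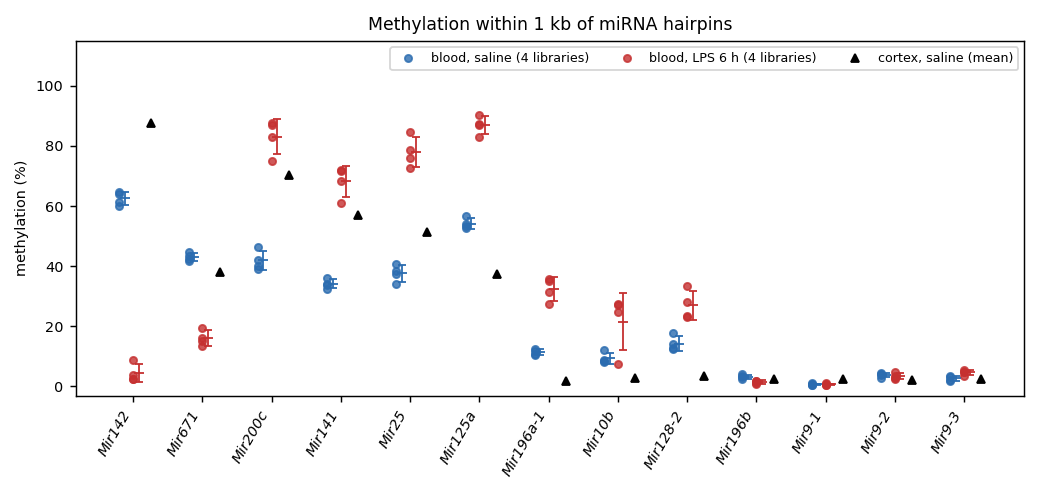
Methylation (%) within 1000 bp of 13 miRNA hairpins. Dots are single libraries (blue saline, red LPS), bars the mean ± SD of 4 and triangles the mean of the saline cortex libraries; Mir142 and Mir671 are lower after LPS, the Mir9 hairpins stay under 6% in all libraries, and at Mir10b 1 LPS library lies below the saline ones.

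The share of changed promoters went down with the number of CpGs. Of 1058 starts whose 300-base RefSeq promoter (250 bases before to 50 after the start) holds 0 to 5 CpGs, 24.5% rose and 10.8% fell. With 6 to 10 CpGs these were 17.3 and 8.14% of 1805, with 11 to 15 CpGs 6.95 and 2.39% of 1970, with 16 to 25 CpGs 2.21 and 0.276% of 4710, and with 26 to 67 CpGs 0.563 and 0.0939% of 5325. The median level was 44.1% in saline and 58.6% in LPS in the first class and 0.495 and 0.615% in the last.

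Short motifs were counted on either strand in the promoters with at most 10 CpGs. GAGGAAGT was found in 25 of 261 promoters that fell (9.58%), 9 of 572 that rose (1.57%) and 62 of 2030 that were not called (3.05%), and in 3.20% of all 32851 promoters of the table. Besides Pf4, Parvg, Cbfa2t3, Unc119 and Eng, the 25 included Gimap1, a GTPase of lymphocytes, which fell from 47.0% ± 3.30 to 4.36%, Arhgap25 and Cyth4. They were not all blood genes or large falls. Many were starts of long noncoding RNAs, and Hnrnpf, Veph1 and Tnp2 were among them. Tnp2 fell from 52.6% ± 5.36 to 34.3% ± 7.75 and its libraries overlapped. CCGGAAGT, the general ETS site, which differs from the former at its start and so cannot take the same position, was in 4.98% of those that fell, 1.05% of those that rose, 3.69% of those not called and 3.89% of the whole table. TGTGGTT, the RUNX site, was in 8.81, 6.47, 4.73 and 5.27% of the same classes, and AGATAA, known from erythroid genes, in 16.5, 10.1, 12.0 and 11.2%. TTGCNNAA, the C/EBP site, was in 13.8, 11.5, 12.8 and 10.8%, and GGGCGG, the SP site, in 16.5, 20.8, 24.3 and 35.7%. The whole table also holds the CpG-rich promoters. These shares are descriptions of the sequences and carry no test.

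Called tiles mostly had no other called tile close by. RRBS measures scattered fragments, and how many called tiles had a tested neighbour was not counted. Whether the changes themselves stand alone was therefore not tested. Joined where at most 1 tile stood between them, the rising tiles made 20003 runs, of which 1825 held more than 1 tile, and the falling tiles 8292, of which 466 did. The longest run was a fall of 7 tiles on chromosome 8 from 84701001 to 84709000, over Lyl1 and the end of Nfix, from 33.2% ± 1.42 (n = 4) to 5.35% ± 1.63 (n = 4). Runs of 6 rising tiles lay over Erf, a transcriptional repressor (51.9% ± 1.21 to 77.7% ± 3.25), Ccdc60 (68.5% ± 1.57 to 79.6% ± 2.29) and Sik1, a salt-inducible kinase (52.5% ± 1.41 to 79.8% ± 3.74). Falls of 5 tiles lay over the homeobox genes Six2 (29.3% ± 1.31 to 9.65% ± 0.716) and Lhx2 (12.5% ± 1.23 to 5.17% ± 0.535). The Lhx2 change was small: with a minimum difference of 10 points, 0 of its 5 tiles stayed called, against 5 of 5 at Six2. A rise of 5 tiles over Tnfaip2, a gene induced by tumour necrosis factor, was the steepest of the 5-tile rises, from 33.4% ± 3.26 to 73.9% ± 6.20. In each of these runs, taken as the mean over its tiles, all LPS libraries lay beyond all saline ones.

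Within genes, rises and falls were often mixed. Of 3926 genes with 2 or more called tiles, 1982 had both directions, 1713 rises only and 231 falls only. Gse1 had 40 rising and 19 falling tiles, Camta1 24 and 11, and Prdm16, a regulator of brown fat and stem cells, 22 and 9. Etv6, an ETS factor needed for blood formation in marrow, had 9 falling tiles of 15 and none rising, and Ptpn14, a tyrosine phosphatase, 17 rising of 23 and none falling. For such genes a mean over the whole span hides part of the change: Itgal and Vav1 each had tiles of both directions.

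The sex chromosomes differed from the autosomes in direction. On the X, 12.1% of 1356 tiles rose and 13.6% fell. On the Y, 1 of 221 tiles rose and 76 fell (34.4%). The mean over Y tiles was 73.6 to 74.3% in the saline libraries and 64.6 to 68.2% in the LPS libraries. Over the 109 Y tiles also measured in cortex it was 72.2% ± 0.163 (n = 4) in saline blood, 65.8% ± 1.42 (n = 4) in LPS blood and 85.1% ± 0.926 (n = 4) in saline cortex. The X mean was 58.2% ± 0.118 and 58.3% ± 1.013.

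The blood difference was set against the brain differences at 6 h with a limma interaction contrast over tiles measured in both tissues. Against hippocampus (3 saline and 4 LPS libraries), the blood difference was more positive at 20236 of 60496 tiles (33.5%) and more negative at 3830 (6.33%), or 7608 with centring. Against cortex (4 and 4 libraries) it was more positive at 15153 of 66816 (22.7%) and more negative at 5630 (8.43%), or 8769 with centring. At the blood tiles that rose, the median LPS difference was 17.0 points in blood and -0.0918 in cortex, and at those that fell -14.1 and 0.144 points. In hippocampus the medians at the same kinds of tiles were -3.85 and -3.66 points, so the fall there did not follow the direction in blood.

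Among tiles with a mean blood level of 5 to 95%, blood changed least often where brain DNA was highly methylated. Tiles that were nearly unmethylated in both tissues are left out by that filter. The shares in the class under 20% in brain therefore do not describe unmethylated sites in general. Brain was the mean of the saline hippocampus and cortex libraries, which entered the interaction contrast but not the blood calls counted here. The brain level of a tile can rest on other cytosines than its blood level. Of 29639 tiles over 80% in brain, 16.3% rose and 8.70% fell in blood. Of 22729 tiles at 20 to 80% these were 48.1 and 13.7%, and of 6159 tiles under 20% they were 42.9 and 12.1%. At 1396 tiles where LPS blood and brain differed by more than 60 points, the saline blood libraries lay a median of 53.9, 54.7, 54.7 and 54.4% of the way from the LPS blood mean to the brain level, and the LPS libraries, whose mean is 0 on this scale by construction, -4.19, 7.29, -2.54 and -1.30%. Over tiles the quartiles of these positions in the saline mean were 25.999 and 73.3%, so tiles did not share a single position. The median was 67.0% at the 403 tiles with brain above LPS blood and 43.6% at the 993 with brain below it. Where brain and LPS blood were both over 90% (10684 tiles), saline blood had a median of 92.9%, and where both were under 10% (1644 tiles) a median of 5.97%. Both medians are bounded by the filter of 5 to 95% on the mean blood level. They therefore do not give the level of saline blood at all sites where brain and LPS blood are alike.

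**Figure D5:**
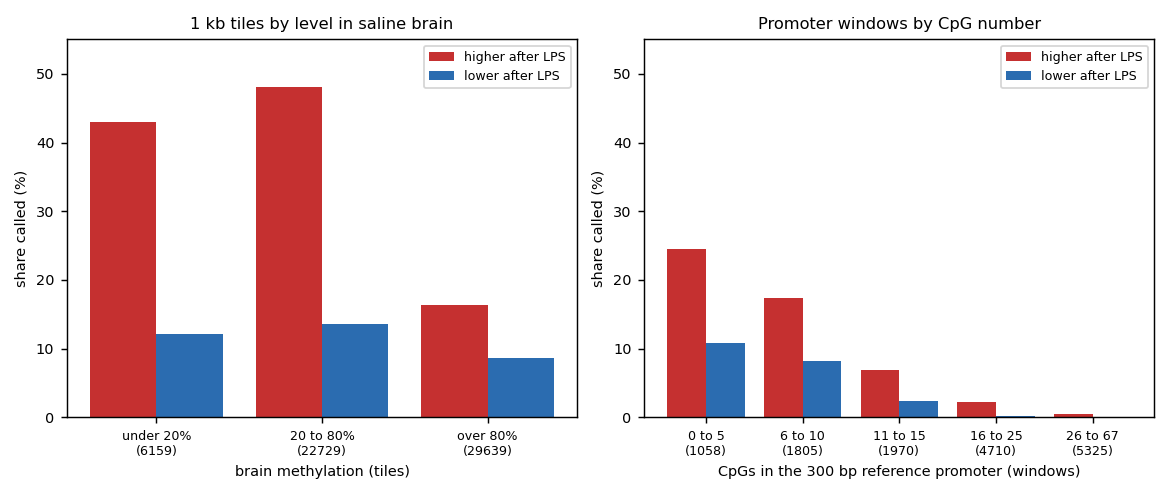
Share (%) of 1000 bp tiles (left, by the level in saline brain) and of promoter windows (right, by the number of CpGs in the reference promoter) that rose (red) or fell (blue) after LPS, with the number of features in brackets. Only tiles with a mean blood level of 5 to 95% are counted, whereas all measured promoters are, so shares cannot be compared between the panels. Within each panel, changes are fewest at tiles over 80% in brain and at promoters with 26 or more CpGs.

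Levels in the LPS blood taken at 12 h and 24 h (3 libraries each) are given for 9 windows, chosen after their values were seen. Those comparisons use the same 4 saline libraries and partly other cytosines, so the values stand side by side and are no independent support. Csf3r was at 3.39% ± 2.07 (n = 4) at 6 h, 4.38% at 12 h and 4.06% at 24 h, against 36.0% in saline. Pf4 was at 6.06, 5.85 and 4.17%, Il12a at 3.27, 1.38 and 1.25%, Batf at 9.70, 8.21 and 6.54%, Mir142 at 4.39, 3.32 and 1.23%. Ckm was at 82.0, 80.4 and 80.5%, Hoxa5 at 69.3, 65.3 and 69.0%, Cldn4 at 65.6, 67.0 and 69.0% and Mcts2 at 88.8, 94.0 and 90.4%. At these 9 windows the 3 LPS times lay closer to each other than to the saline mean. Not every window did so: Cd59a was at 21.1% in saline and at 39.3, 45.0 and 30.9% at 6, 12 and 24 h. Cortex of the saline group was at 68.3% at the Csf3r start, 79.0% at Il12a and 87.6% at Mir142, above saline blood, and at 3.92% at Hoxa5, below it, whereas at Cldn4 it was at 25.7%, next to saline blood at 21.3%.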

How the data were processed

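Percent methylation of single cytosines, deposited by the authors for 4 saline and 4 LPS (6 h) blood libraries, was used as given, with the hippocampus and cortex tables at 6 h and the blood tables at 12 h and 24 h for comparison. The submitters' processing notes list Bismark, Bowtie2, methylKit, Trim Galore, SAMtools and FastQC, and the build GRCm38/mm10. Their versions, any coverage minimum and any normalisation were not stated there, so precision rests on the spread between libraries. Means were taken over cytosines of 1000 bp tiles, genes with 1000 bp either side, RefSeq starts with 500 bp either side (GRCm38.p6) and miRNA hairpins with 1000 bp either side, with at least 3 cytosines. Of 146559 cytosines inside a reference promoter, 146558 stood at a CpG of that sequence. Scaffolds were left out of windows. Of 671 listed genes in 29 lists, 227 had a measured start.

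limma 3.58.1 (in R 4.3.3, moderated with a mean-variance trend, p-values two-sided and adjusted by Benjamini-Hochberg) compared windows with a mean of 5 to 95%; calls needed an adjusted p under 0.05 and 5 points (10 for cytosines, none for genes). Lists and hairpins were counted in a fit over all measured windows. The fits were tested on simulated data. Genes were named by rule: up to 3 rises and 3 falls per list, the 10 largest each way without overlap, the 10 longest runs and 9 defining blood genes. Members, lists and rule were chosen with earlier results of these data known. Hairpin windows, the lists of largest changes in coding genes and group weights were added after seeing the data. Alternatives were the logit scale, centring, other filters and windows, a replicate block, group weights and leaving out each library. No library was a copy of another (at most 39.7% of values equal in a pair). Python 3.11.15 with pandas 2.3.3 was used besides.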

Additional observations from a re-analysis of the deposited data

Results flagged for a closer look

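Among 162 groups of 4 libraries checked at the named promoters, hairpins and the mean level, 11 held a library whose gap to the next took more of the group's range than Dixon's critical value for 4 allows, where chance gives about 1 in 20. LPS replicate 2 was that library in 7 of them. It was the least changed at Il12a (9.89% against 0.722 to 1.66% in the others, gap share 0.898), Parvg (10.8% against 0 to 1.70%, 0.842), Unc119 (11.2% against 0.813 to 0.901%, 0.992), Ckm (68.9% against 85.0 to 87.1%, 0.88), Gm38675 (73.1% against 84.2 to 85.1%, 0.93), A030001D20Rik (70.6% against 88.6 to 91.2%, 0.874) and Mir10b (7.33% against 24.8 to 27.3%, 0.875). LPS replicate 3 stood above the others at Acta1 (42.8% against 31.1 to 32.7%, 0.864). Saline replicate 4 stood apart at Gp1bb (57.7% against 70.7 to 72.4%, 0.886) and Mir10b (12.1% against 8.26 to 8.84%, 0.848), and saline replicate 3 at Ptges (8.68% against 11.7 to 12.1%, 0.873).

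The LPS difference in blood differed from that in hippocampus by the interaction test at 20236 tiles upwards and 3830 downwards, and from that in cortex at 15153 and 5630. With centring the downward counts were 7608 and 8769. Of the 18904 rising blood tiles measured in both, 90.8% also passed that test against hippocampus in the same direction, and 54.1% of the 6627 falling ones. Against cortex these were 73.0% of 20271 and 68.8% of 7561. The tiles were picked by the blood difference, which is itself part of the contrast, so passing in the same direction is partly built in. The hippocampus difference also enters, with medians of -3.85 points at the rising and -3.66 at the falling blood tiles. These shares are therefore no separate support.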

How the results depend on the processing

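Depth is unknown, so limits by depth cannot be set. Of the recomputed main values, 201 kept their side and, for counts, stayed within a set margin of the main count, 19 moved past it and 9 weakened. That margin was wide: 102368 rising cytosines became 69996 with no filter on the mean and still counted as kept. The values that moved or weakened follow here, and the cause was not tested beyond the change each setting makes. Centring gave 13956 lower tiles, 3238 higher and 4742 lower genes, and 7608 (hippocampus) and 8769 (cortex) more negative blood differences. At least 5 cytosines left 12628 and 4685 tiles, 237 lower promoters, and 11626 and 2156 (hippocampus) and 8698 and 3049 (cortex) tiles by interaction. A 25-point minimum left 57600 and 19837 cytosines, no filter on the mean 24587 lower ones, and a 10-point minimum 5825 lower tiles. Narrower promoters (250 bp before to 50 bp after) gave 386 and 138 calls, and 1000 bp either side 557 falls. The group median difference was 0.331 points. Leaving out a library gave a mean difference of 1.648 to 2.224 points with an exact permutation p of 0.0571, the smallest that 4 against 3 allow. Narrow windows turned Hoxa6 (-2.945514). The tile inside Csf3r that was not called turned to -1.058511 with centring and ranged from -1.491453 to 4.388176 when 1 library was left out (-0.8548791 without LPS replicate 3). Group weights, added after seeing the data, kept all calls of named windows.

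Same-numbered libraries did not deviate together (correlations of tile deviations -0.00657 to 0.0268), so the numbers were not taken as pairs. The replicate block gave 22015 higher and 8780 lower tiles and 966 and 357 promoters, and ended 1 named call, the rise at Slc4a1. That tile and the small changes inside Vav1 (57295001) and Itgal (127314001), and Rhd, Igf2, Pygm, Csf2ra, Cldn7, Ptges, Ltb and Treml1, were lost under at least 1 alternative. No paired analysis was possible across tissues because the labels do not tie the tissues to animals.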
